A study of Arabidopsis thaliana with 4 samples.

Results

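Roots of the jasmonate receptor mutant coi1-2 were compared with roots of the wild type Col in the absence of aluminium (Al), gene by gene, as 2 of the 4 RNA-seq libraries of a study of Arabidopsis thaliana. The libraries were chosen by their labels, 1 a side, and not by any measured value. Of 23381 loci with a read in any library, 17514 reached at least 1 RPKM (reads scaled by transcript length and library total) in at least 1 library and were compared. COI1 encodes an F-box protein that forms part of the receptor for jasmonoyl-isoleucine, the active form of the hormone jasmonate, and coi1-2 is a point-mutation allele in which that perception is impaired. The study set these genotypes against each other with and without Al, a toxic ion of acid soils that stops root growth.

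Both groups were seedlings 6 days old, about 500 a sample, raised in 2% MGRL nutrient solution at pH 5.0 and 22 °C under 16 h of light and 8 h of dark. Both then stood in the same solution with 0 µM AlCl3, and the other pair of groups, Col and coi1-2 with Al, in solution with 10 µM AlCl3. The treatment protocol has the roots taken after 6 h, the library titles give 0 h for these 2 groups, and the series' design text says 24 h, so how long the seedlings of this comparison stood in fresh solution is uncertain. Each library pooled many seedlings of 1 line. With no other allele or complemented line among the samples, the COI1 mutation and other differences between the lines cannot be told apart.

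In a cell with little jasmonate, JAZ proteins hold back MYC transcription factors. Jasmonoyl-isoleucine joins JAZ proteins to COI1, they are degraded, and the freed MYC factors switch on genes of defence, of jasmonate synthesis and inactivation, and the JAZ genes themselves, so that the pathway both amplifies and restrains itself. In roots jasmonate is known for slowing growth and for raising glucosinolate synthesis and wound responses.

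MYC factors bind G-box letters in promoters, so the stretches before the start of 5 jasmonate genes are shown. In 3 of them RNA was lower in coi1-2 without Al: JAZ2, JAZ7 and ERF109, a transcription factor gene of the AP2/ERF family. For contrast, the 2 genes JAZ3 and JAZ12 hold such letters but were not called lower without Al, though JAZ3 was with Al. Each run is the 250 bases before the gene start annotated in TAIR10.1, read 5′ to 3′ on the gene's strand. Capitals mark the G-box CACGTG or its variant, CACGTT or AACGTG, which are each other's reverse complement.
JAZ2, chromosome 1, chr1:28150447-28150696, reverse strand: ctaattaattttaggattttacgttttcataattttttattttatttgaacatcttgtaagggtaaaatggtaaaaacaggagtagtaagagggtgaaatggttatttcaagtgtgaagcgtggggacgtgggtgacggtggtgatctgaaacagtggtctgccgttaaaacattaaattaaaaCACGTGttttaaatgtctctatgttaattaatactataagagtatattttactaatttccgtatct
JAZ7, chromosome 2, chr2:14572780-14573029, forward strand: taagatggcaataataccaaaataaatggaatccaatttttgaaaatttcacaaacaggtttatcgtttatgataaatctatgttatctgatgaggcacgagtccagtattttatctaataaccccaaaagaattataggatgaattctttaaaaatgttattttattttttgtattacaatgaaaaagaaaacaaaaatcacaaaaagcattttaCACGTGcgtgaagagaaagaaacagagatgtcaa
ERF109, chromosome 4, chr4:16451626-16451875, forward strand: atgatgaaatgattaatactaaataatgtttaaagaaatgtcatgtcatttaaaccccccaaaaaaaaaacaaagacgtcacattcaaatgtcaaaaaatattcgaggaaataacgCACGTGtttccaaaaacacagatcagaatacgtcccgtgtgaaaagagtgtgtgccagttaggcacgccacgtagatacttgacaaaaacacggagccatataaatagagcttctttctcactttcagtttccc
JAZ3, chromosome 3, chr3:6119457-6119706, forward strand: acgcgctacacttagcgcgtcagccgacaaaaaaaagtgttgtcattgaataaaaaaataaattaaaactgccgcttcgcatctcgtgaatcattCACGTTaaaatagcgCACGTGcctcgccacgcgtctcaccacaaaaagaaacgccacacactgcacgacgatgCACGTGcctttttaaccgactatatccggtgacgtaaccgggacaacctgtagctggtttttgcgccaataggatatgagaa
JAZ12, chromosome 5, chr5:7090454-7090703, forward strand: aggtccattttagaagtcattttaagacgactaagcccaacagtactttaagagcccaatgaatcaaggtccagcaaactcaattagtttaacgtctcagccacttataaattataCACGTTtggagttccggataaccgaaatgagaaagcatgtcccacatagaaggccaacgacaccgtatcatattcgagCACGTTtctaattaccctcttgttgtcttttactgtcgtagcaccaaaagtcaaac

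The Col library held 7.80 M reads that were uniquely assigned and the coi1-2 library 7.42 M reads, so that a floor of 3 reads corresponded to 0.385 and 0.404 CPM (reads scaled to a common library total). The pair with Al held 6.93 M reads in Col and 7.19 M reads in coi1-2. With 1 library a side there is no replicate check: ratios describe these libraries, and the intervals given cover counting error only, since PCR copies are not independent molecules. Higher and lower are used as calls where the log2 ratio of RPKM + 0.5 reached 2-fold and the 95% exact interval (Clopper-Pearson) of the read ratio, taken with no pseudocount, lay wholly on one side of no change. Over all genes the median ratio was 0.01, with quartiles of -0.19 and 0.23. Of 17514 genes, 251 were called higher in coi1-2 (1.43%) and 235 lower (1.34%). COI1 itself was read at 33.9 RPKM in Col against 29.8 in coi1-2 (log2 ratio -0.18), which does not check the genotype labels, because a point mutation need not alter the level of the transcript.

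**Figure D1:**
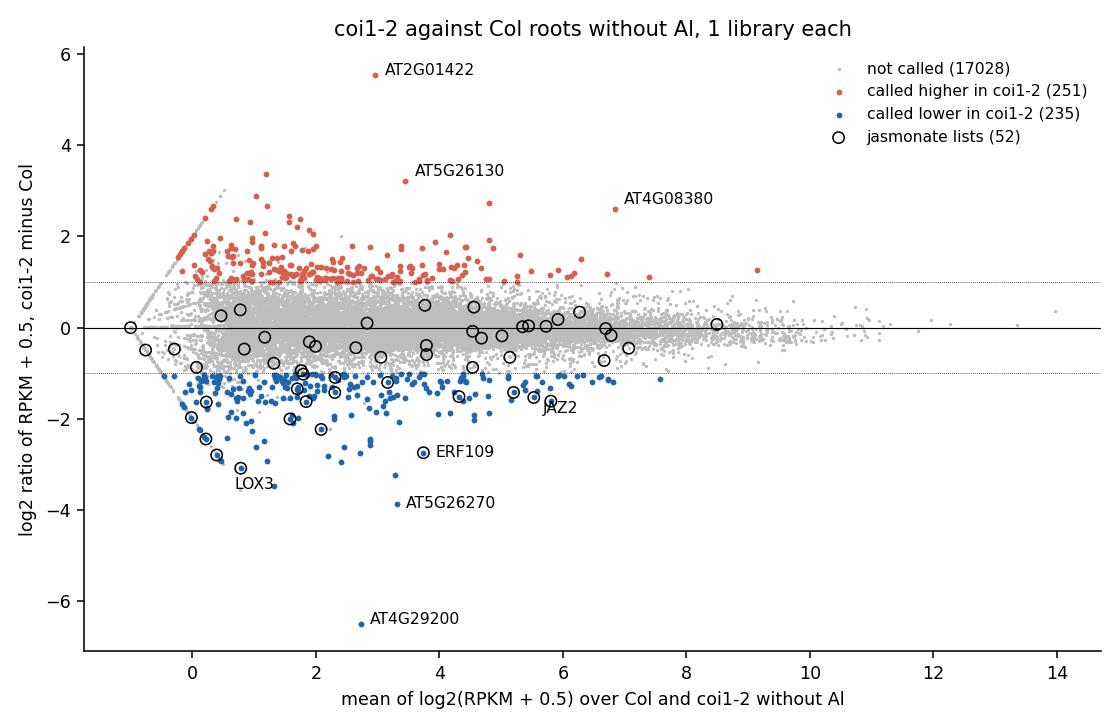
Each point is 1 of 17514 genes, with its mean level over Col and coi1-2 without Al on the x axis (log2 of RPKM + 0.5) and the log2 ratio of coi1-2 to Col on the y axis; colours mark called genes, circles the 52 jasmonate genes, and dotted lines 2-fold. Grey points beyond the dotted lines had too few reads to exclude no change, and no circled gene lies among the genes called higher.

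Genes of the jasmonate pathway lay mostly on the lower side in coi1-2. On 5 lists of such genes, 52 of 73 entries were measured, some of them only through the pair with Al, 12 lay below 1 RPKM in every library and 9 had no read. Of the 52, 18 were called lower and 0 higher, against 1.34% and 1.43% of all genes, 40 ratios were below 0 and 11 above, and the median was -0.54. The same genes in the pair with Al, which shares no library with this comparison, had a median of -0.58 relative to all genes, with 9 called lower and 2 higher.

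Ratios with Al are given here less their all-gene median of 0.26. In that pair 1379 genes (7.87%) were called higher and 328 (1.87%) lower as deposited. After subtraction of a trend with transcript length, which that pair showed far more strongly, 349 (1.99%) were higher and 343 (1.96%) lower. On that scale 14 jasmonate genes were lower with Al and 0 higher.

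Several genes of the enzymes that start jasmonate synthesis from linolenic acid in the plastid were lower, though not the most strongly read lipoxygenase and cyclase genes. LOX3, a lipoxygenase, was read at 4.51 RPKM in Col without Al and 0.0911 in coi1-2, from 104 and 2 reads, and at 1.51 against 0.188 with Al. Its log2 ratio without Al was -3.08, with an interval of the read ratio from -8.69 to -3.74. LOX4, a second lipoxygenase, was read at 8.68 and 1.46 RPKM without Al, and at 1.8 against 3.06 with Al, where its ratio was 0.37 less the all-gene median but -0.16 with the length trend subtracted. LOX6, the most strongly read lipoxygenase gene of the list, was level without Al at 23.4 and 22.1 RPKM (-0.08). AOS, allene oxide synthase, the next enzyme, was read at 59.6 and 22.0 RPKM without Al and at 37.7 against 23.5 with Al. Its ratio without Al was -1.42 (interval -1.63 to -1.24). The allene oxide cyclase gene AOC1 was read at 13.1 and 5.39 RPKM without Al (-1.20) and at nearly equal levels with Al, 9.1 and 9.32. The more strongly read cyclase genes AOC3 (156.3 and 114.0 RPKM, -0.45) and AOC4 (116.3 and 103.0 RPKM, -0.17) were not called. The AOC genes are close copies, and AOC2 had only 7 and 2 reads.

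Later steps of the pathway, in the peroxisome, were not called without Al. The multifunctional protein genes MFP2 (-0.02) and AIM1 (0.18), the acyl-CoA oxidase gene ACX5 (0.10) and the thiolase gene KAT2, the most strongly read of the list at 351.2 and 368.7 RPKM (0.07), lay close to the median of all genes. OPCL1, a ligase gene, was read at 4.2 and 1.95 RPKM (-0.94, just inside 2-fold). AIM1 and the oxidase gene ACX1 were the 2 jasmonate genes called higher with Al as deposited. OPR3, oxophytodienoate reductase, had 18 and 11 reads over 3 listed isoforms, and JAR1, which makes jasmonoyl-isoleucine, had 6 in each library, so depth and the restriction to unique reads allowed no comparison of them. In all, 4 of 17 measured synthesis genes were called lower and 0 higher, with a list median of -0.31.

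The JAZ repressor genes had the lowest median of any list, -1.51, with 7 of 11 called lower and 0 higher. Of the 7, JAZ8 and JAZ10 reached 1 RPKM in Col without Al alone. The filter itself thus favours their lower calls, here and in the count over all the jasmonate lists. JAZ2 was read at 78.1 RPKM in Col against 26.6 in coi1-2 without Al (-1.53, interval -1.76 to -1.35) and at 66.4 against 33.8 with Al. JAZ6 was read at 33.2 and 11.3 RPKM without Al (-1.51) and at 20.9 against 10.2 with Al. For both genes coi1-2 was the lower library in each pair. JAZ1, which has 2 listed isoforms, was read at 6.75 and 2.89 RPKM without Al (-1.09), and at 3.8 against 0.628 with Al. JAZ5 was read at 5.77 and 1.55 RPKM (-1.62) and JAZ7 at 5.49 and 0.995 (-2.0), the last from 29 and 5 reads.

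JAZ8 and JAZ10, which encode repressors that resist degradation in full or in part, had 13 and 14 reads in Col and 0 in coi1-2. With coi1-2 set to a floor of 3 reads they were 4.12-fold and 4.44-fold lower, counting error in Col left aside. The other measured members were not called without Al: JAZ9 at -0.78, JAZ3 at -0.65, JAZ11 at -0.44 and JAZ12 at 0.03. JAZ12, the most evenly read, had 51.8 RPKM in Col against 53.1 in coi1-2. JAZ3 was called lower with Al as deposited, at 10.4 RPKM in Col against 4.22 in coi1-2. JAZ4 and JAZ13 lay below the filter.

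The regulators to which JAZ proteins bind were lower in 1 case. MYC2, the central activator, was read at 129.8 RPKM in Col against 78.8 in coi1-2 (-0.72, interval -0.82 to -0.62), a difference larger than counting error but below 2-fold, and at 22.1 against 23.6 with Al. Its relatives MYC3 (68.1 and 86.3 RPKM, 0.34) and MYC4 (19.7 and 27.0 RPKM, 0.45) lay on the opposite side of 0. JAM1, a related factor that opposes MYC2, was called lower (4.67 and 1.54 RPKM, -1.34), whereas JAM3 was level (0.02). Over the 7 measured genes of this list, COI1 included, the median was 0.02.

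Genes that inactivate jasmonate were lower in 3 of 9 measured cases, with a list median of -0.65. CYP94B3, which hydroxylates jasmonoyl-isoleucine, was read at 97.2 RPKM in Col against 31.5 in coi1-2 without Al (-1.61, interval -1.79 to -1.46), and at 21.8 against 22.5 with Al. The hydrolase gene ILL6 was read at 4.44 and 1.94 RPKM without Al (-1.02). JOX4, an oxidase of free jasmonate, had 23 reads in Col and 0 in coi1-2 without Al, at least 7.29-fold lower, and 31.8 and 2.5 RPKM with Al. JOX3 had only 5 and 2 reads without Al but was read at 9.36 and 0.401 RPKM with Al. JOX2 was read at 43.8 and 27.6 RPKM without Al (-0.65, not called) and at 115.1 against 37.8 with Al. JOX2 thus differed between the genotypes by more in the pair with Al, and CYP94B3 by more in the pair without it, while the few reads of JOX4 and JOX3 without Al allow no such order. Whether these differences themselves differ was not tested.

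Of 18 jasmonate-responsive defence genes, 8 had no read, among them VSP1, VSP2 and the PDF1.2 genes, well-known markers in leaves, and 8 were measured. Of the measured genes, NATA1 and ANAC019 passed the filter only through the pair with Al. Without Al NATA1 had no read in either library and ANAC019 had 2 and 0 reads. ERF109 was read at 34.1 RPKM in Col against 4.67 in coi1-2 without Al (-2.74, interval -3.33 to -2.43), and at 1.25 against 0.502 with Al. ERF1, a factor that joins jasmonate and ethylene responses, was read at 7.6 and 2.52 RPKM without Al (-1.42), and at 13.7 against 7.81 with Al. TAT3, a tyrosine aminotransferase gene, was read at 1.56 and 0.164 RPKM without Al, from 20 and 2 reads (-1.63), and at 24.3 against 2.12 with Al. These 3 were the members called lower, none was called higher, and coi1-2 was the lower library for each of them in both pairs. Of these 3 only TAT3 was called lower with Al, where ERF109 had only 12 and 5 reads.

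**Figure D2:**
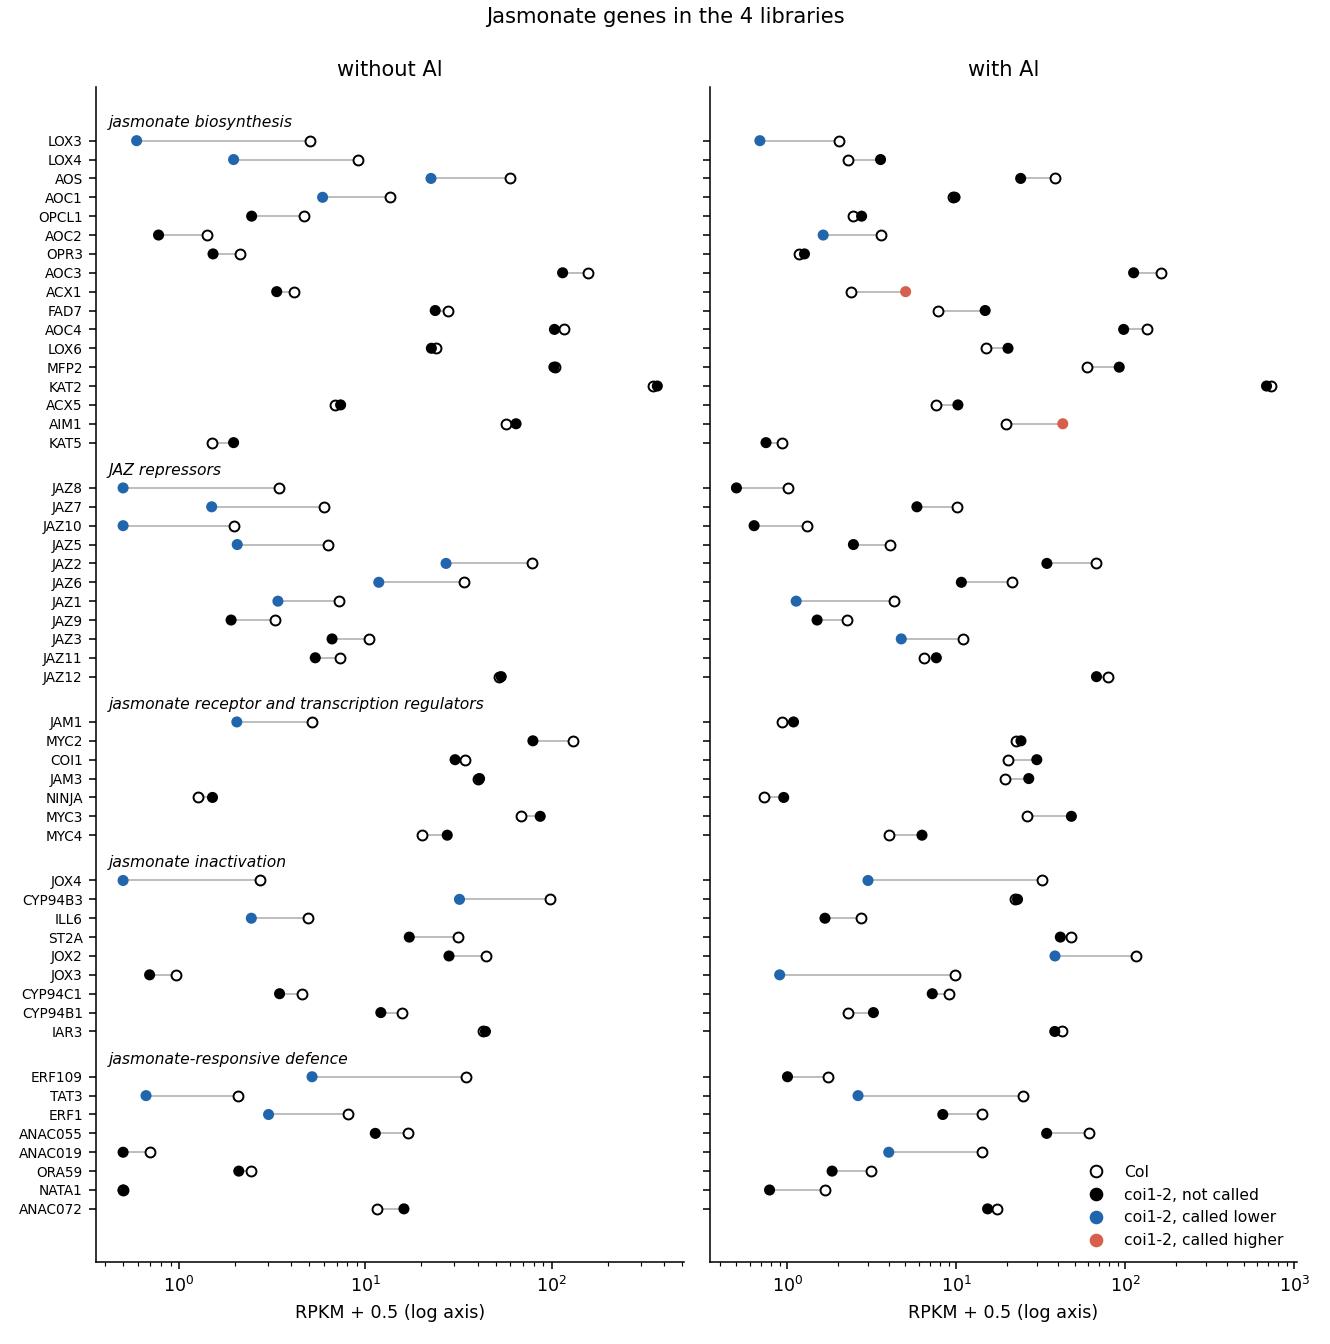
Levels (RPKM + 0.5, log axis) of the 52 measured jasmonate genes by role, in Col (open) and coi1-2 (filled), without Al on the left and with Al on the right; colour marks a call in that pair, from 1 library a group. Without Al 18 filled points are marked lower and 0 higher, with the widest gaps for LOX3, ERF109 and JAZ8.

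Genotype could be tested only over both treatments, with 2 libraries an arm, Al as a term and 1 residual degree of freedom. The labels speak of no separate cultures among these 4 samples. The residual is how far the genotype difference changes between the pairs without and with Al, not a spread between replicates. Each gene's spread was drawn to a shared estimate over genes, weighted as 192.8 degrees of freedom. The p-values thus rest mostly on spread pooled over genes, which may be technical. edgeR's quasi-likelihood test called 26 of 16477 genes higher (0.158%) and 71 lower (0.431%) in coi1-2. Among the jasmonate genes 10 of 47 tested fell and 0 rose: LOX3, AOS, JAZ1, JAZ2, JAZ6, JOX2, JOX4, TAT3, ERF109 and ANAC019, a NAC factor gene with only 2 and 0 reads without Al. JAZ2 fell by 1.42 log2 units (SE 0.29, edgeR adjusted p = 0.000867), TAT3 by 3.71 (SE 0.45, edgeR adjusted p = 8.13e-11) and ERF109 by 2.60 (SE 0.42, edgeR adjusted p = 4.41e-06). Each was lower in coi1-2 in both pairs, though ERF109 had only 12 and 5 reads with Al. With DESeq2 in place of edgeR, AOS, JAZ1, JAZ6, JOX2 and ANAC019 no longer passed. Of the genes that edgeR called, 25 of 26 higher and 54 of 71 lower were also called in the pair without Al, which is part of that test.

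In the promoters from 250 bases before to 50 after the TAIR10.1 start, G-box letters (CACGTG, the same on both strands) stood in 5 of 18 jasmonate genes called lower and in 4 of 34 not called, against 8.52% of all 17155 genes with a promoter. The G-box or its variant stood in 11 of 18 called lower (61.1%), in 10 of 34 not called (29.4%) and in 17% of all. Over all genes called lower, 31% of 226 promoters held the G-box or its variant, and over all called higher 14.7% of 231. The GCC-box, GCCGCC or its reverse complement GGCGGC, to which many ERF factors bind, stood in 3.1% of those called lower, 3.03% of those called higher and 2.61% of all. In the runs shown above the G-box starts 66 bases before the annotated start of JAZ2, 34 before JAZ7 and 134 before ERF109. JAZ3 holds the same letters at 140 and 82 bases. It was not called without Al (-0.65) but was called lower with Al as deposited. A match is a description of letters and not a site of binding, and the jasmonate genes are known in part for such letters. For some genes the TAIR10.1 start lies away from the deposited one. The 250 bases taken for JAZ1 end at 6621776, and its deposited start is 6622094. Motifs before the deposited starts were not counted.

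Beyond the jasmonate lists, the lowest ratio belonged to AT4G29200, annotated as a beta-galactosidase related protein at chromosome 4, positions 14398054 to 14400198, reverse strand. It was read at 62.2 RPKM in Col against 0.196 in coi1-2 without Al (-6.49), and at 104.2 against 0.911 with Al. These levels rest on 667, 2, 992 and 9 reads. Reads covered 91.1% of its transcript in Col and 7.13% in coi1-2 without Al. Its neighbours did not share the difference: OZF2 on one side had 403 and 404 reads, and beyond the weakly read GGT4 (24 and 17 reads) PFK1 had 632 and 628. AT5G26270, a gene of unknown function on chromosome 5 from 9206375 to 9208136 with 2 listed isoforms, was read at 37.2 and 2.1 RPKM without Al (-3.86) and at 53.8 against 1.94 with Al, while its neighbours AT5G26260 (0.20) and AT5G26280 (0.06) were level. Unique reads covered only 18.7% of its transcript in Col and 8.82% in coi1-2. Over both treatments AT5G26270 fell by 4.59 (SE 0.37, edgeR adjusted p = 1.17e-22).

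The genes low in coi1-2 included members of the AP2/ERF transcription factor family, several of which answer wounding, cold and ethylene. Of 88 such genes by their file description, a group chosen after the values were seen, 15 were called lower, where 1.34% of all genes were, and 0 higher. The 15 include ERF1 and ERF109 of the jasmonate lists. ORA47, a factor of the wound response that can activate jasmonate synthesis genes, was read at 17.5 RPKM in Col against 2.5 in coi1-2 without Al (-2.58), and at 7.55 against 1.82 with Al. ERF13 was read at 16.8 and 2.6 RPKM without Al (-2.48), and at 9.75 against 2.39 with Al. DDF1 (16.6 and 2.63 RPKM, -2.45), CBF4 (5.89 and 0.998 RPKM, -2.09) and ERF2 (34 and 8.96 RPKM, -1.87) were lower without Al, as were the strongly read ERF6 (157.4 and 71.1 RPKM, -1.14) and ERF-1 (105.3 and 44.2 RPKM, -1.24). In the test over both treatments ORA47 fell by 2.60 (SE 0.42, edgeR adjusted p = 3.35e-06) and ERF13 by 2.51 (SE 0.40, edgeR adjusted p = 2.71e-06).

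Not every gene of rapid responses was low. On the list of rapid wound and touch genes 4 of 16 were called lower and 0 higher, with a median of -0.46: WRKY40, TCH4, ERF6 and WRKY46. WRKY40 was read at 47.2 RPKM in Col against 11.2 in coi1-2 without Al (-2.03), and at 7.73 against 7.1 with Al. TCH4, a touch-induced xyloglucan-modifying enzyme gene, was read at 62.5 and 25.9 RPKM without Al (-1.26). ZAT10 (-0.58), ZAT12 (-0.71) and WRKY33 (-0.42) lay below 0 without being called, and ERF5 (0.29), ERF104 (0.02), ERF105 (0.22) and MYB44 (0.13) lay above it. Other genes of this kind, named after their values were seen, were the calmodulin-like CML37 (39.1 and 14.0 RPKM, -1.45), the peptide precursor genes PROPEP1 (41.0 and 18.3 RPKM, -1.14) and PSK2 (53.3 and 14.1 RPKM, -1.88), and the oxidase gene RBOHD (76.6 and 33.0 RPKM, -1.20). These genes answer handling and time in solution within minutes to hours. The libraries hold 1 harvest each, so harvest and genotype cannot be told apart for them. The same holds for the jasmonate genes and for all others here.

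Genes called lower made 1 of 11 on the salicylate list, 2 of 11 for Al resistance and 1 of 19 for iron. Over all genes 1.34% were called lower. GRX480, a glutaredoxin of the salicylate response that represses jasmonate targets, was read at 29.3 RPKM in Col against 2.69 in coi1-2 without Al (-3.22), and at 16.1 against 7.18 with Al; it was the single member of 11 salicylate genes called. BCB, a blue copper-binding protein gene linked to Al tolerance, was read at 16.5 and 2.02 RPKM without Al (-2.75), and at 156.7 against 73.4 with Al. With PGIP2, at 13 and 3 reads, it made 2 of 11 Al resistance genes called lower in roots that had met no Al, and ALS3 was level within counting error (-0.26). CYP82C4, an enzyme of coumarin synthesis under iron deficiency, was the single called gene of 19 iron genes (16.3 and 4.07 RPKM, -1.87), and the iron reductase gene FRO2 (517.9 and 297.7 RPKM, -0.80) and the transporter gene IRT1 (204.4 and 119.0 RPKM, -0.78) lay below 2-fold.

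On the list of tryptophan and indole glucosinolate genes 3 of 24 were called lower, where 1.34% of all genes were, and 0 higher. Its median was -0.24. CYP79B2 and CYP79B3, which turn tryptophan into indole-3-acetaldoxime, were read at 133.5 and 57.8 RPKM (-1.20) and at 108.8 and 44.6 RPKM (-1.28) without Al. With Al they were read at 77.5 and 61.2 RPKM and at 15.6 and 11.1 RPKM. The methyltransferase gene IGMT1 was read at 25.3 and 9.93 RPKM without Al (-1.31), and its near-identical neighbour IGMT2 at 64.7 and 32.1 RPKM (-1.0, just inside 2-fold). CYP83B1, the next enzyme of the pathway, was hardly lower (335.1 and 281.8 RPKM, -0.25), and of the regulators MYB51 was at -0.80 and MYB34 at 0.41. None of 17 aliphatic glucosinolate genes was called (median -0.29). PYK10, the abundant beta-glucosidase of ER bodies that cuts indole glucosinolates, was read at 1116.3 and 1240.3 RPKM (0.15). On its list of 12 genes NAI2 alone was called, on the higher side (3.29 and 8.16 RPKM, 1.19).

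The highest ratio belonged to AT2G01422, a non-coding RNA at chromosome 2, positions 183940 to 184734, forward strand. It was read at 0.645 RPKM in Col against 52.7 in coi1-2 without Al, which rest on 4 and 311 reads (5.54), and at 12.5 against 51.8 with Al, so that it was the lower in Col in both pairs and lowest in Col without Al. Its neighbours PIN4 (26 and 26 reads) and HB17 (37 and 44 reads) did not share the difference. AT4G08380, an extensin-like cell wall protein gene, was read at 46.0 RPKM in Col against 283.3 in coi1-2 without Al (2.61, interval 2.48 to 2.77), and at 9.77 against 26.2 with Al. Over both treatments it rose by 1.93 (SE 0.31, edgeR adjusted p = 4.18e-06). AT3G28510, a P-loop ATPase gene, was read at 0.209 and 3.22 RPKM without Al and at 2.9 against 19.2 with Al, higher in coi1-2 in both pairs. GolS4, a galactinol synthase gene, was read at 1.62 and 4.72 RPKM without Al (1.3), and at 5.91 against 35.5 with Al.

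Other high genes stood in local groups along a chromosome. AT1G63550, AT1G63560 and AT1G63570, secreted receptor-like proteins that lie side by side on chromosome 1 between 23569538 and 23576304, were read at 12.0 and 25.3 RPKM, at 8.44 and 36.2 RPKM and at 10.3 and 71.5 RPKM without Al. With Al AT1G63570 was read at 5.06 and 5.37 RPKM. On chromosome 4, 6 lipid-transfer-like genes from AT4G22485 to AT4G22520 were called higher, led by AT4G22505 (0.215 and 6.85 RPKM, 3.36) and AT4G22485 (0.975 and 7.11 RPKM, 2.37). With Al AT4G22505 was read at 8.94 and 13.6 RPKM, so Col without Al was again the low library. A further gene of that family nearby, AT4G22610, was lower (7.86 and 0.25 RPKM, -3.48). Members of both groups are similar in sequence, so the split of reads among them is uncertain. AT5G26130, a secreted protein of the CAP family, was read at 3.07 and 32.8 RPKM without Al (3.22) but at 2.59 and 2.77 with Al.

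A run of plastid genes was also high. Of 78 measured genes of the plastid genome, 11 (14.1%) were called higher and 1 lower, and 8 of the 11 lie next to each other from rpoA (ATCG00740, start 77901) to rpl22 (ATCG00810, end 83949) on the reverse strand. They encode a subunit of the plastid RNA polymerase and proteins of the plastid ribosome. ATCG00770 (ribosomal protein S8) was read at 13.9 RPKM in Col against 53.6 in coi1-2 without Al (1.91), and at 4.99 against 9.95 with Al. ATCG00790 (ribosomal protein L16) was read at 45.9 and 131.1 RPKM without Al (1.51), and at 18.0 against 36.8 with Al. The 3 others were the NADH dehydrogenase genes ATCG01100 (1.3) and ATCG01110 (1.8) and ATCG01130, the gene of the Ycf1 protein (1.33). The plastid set as a whole was not high, with a median of 0.04, and reads of all organelle genes made 0.9% of the Col and 0.808% of the coi1-2 library. The libraries were enriched for poly(A) RNA, which plastid transcripts mostly lack, and whether that step differed between the libraries was not tested.

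Light and nutrient genes gave further high members. LHCB1.2 (1.01 and 6.47 RPKM, 2.21), LHCB1.1 (1.2 and 3.78 RPKM, 1.33) and LHCB2.2 (2 and 12 reads), near-identical light-harvesting protein genes, were the 3 of 17 green shoot genes called, all higher, and the whole list summed to 174.6 RPKM in Col against 230.6 in coi1-2. With Al the direction was not kept: LHCB1.2 was read at 52.5 and 39.1 RPKM and LHCB1.1 at 50.4 and 29.8, and the list median was -0.87 relative to all genes. The early light-induced gene ELIP2, named after its values were seen, was read at 5.09 and 18.9 RPKM (1.79). The part of shoot or greening tissue in these values was not tested. NRT2.2, a high-affinity nitrate transporter gene, had 0 reads in Col and 32 in coi1-2, at least 11.2-fold higher with 3 reads as the floor, while its near-identical neighbour NRT2.1 was read at 550.6 and 705.9 RPKM (0.36). The cold regulator CBF3 was read at 0.424 and 5.34 RPKM without Al (2.66), from 3 and 36 reads, but at 6.36 against 3.83 with Al. Its neighbours CBF1 (8.54 and 10.8 RPKM, 0.33) and CBF2 (11.4 and 14.8 RPKM, 0.37) were not called. The hypoxia gene ADH1 (12.5 and 37.0 RPKM, 1.53) and the sinapate glucosyltransferase genes UGT84A2 (114.1 and 247.9 RPKM, 1.12) and UGT84A1 (6.72 and 17.9 RPKM, 1.35) were also called higher.

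All 7 measured type-A cytokinin response regulators, which cytokinin switches on and which damp its signal, had ratios above 0, with a median of 0.68. ARR8 (7.66 and 20.7 RPKM, 1.38) and ARR6 (13.3 and 30.3 RPKM, 1.16) were called higher, and ARR4 was read at 73.4 and 123.9 RPKM (0.75) and ARR3 at 13.7 and 22.2 RPKM (0.68). The cytokinin synthesis gene IPT3, named after its values were seen, was also higher (2.01 and 5.33 RPKM, 1.22). With Al the members went different ways: ARR6 had 68 reads in Col and 29 in coi1-2 and ARR4 was read at 149.7 and 79.0 RPKM, but ARR8 remained the higher in coi1-2 at 1.5 and 3.05 RPKM. The median of the list with Al was -0.28 relative to all genes. None of 27 auxin genes (median -0.03) and none of 14 ethylene genes was called.

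Calls on the remaining lists stand beside shares over all genes of 1.43% higher and 1.34% lower. Of 14 cold genes 2 were higher, CBF3 and the galactinol synthase gene GOLS1 (1.19), and 1 lower, GOLS2 (-1.28). The ribonuclease gene RNS1 (0.491 and 3.35 RPKM, 1.96) was the single call among 15 phosphate genes, and NRT2.2 the single call among 17 nitrate genes. RNS1 had 4 and 26 reads without Al, and was read at 21.8 RPKM in Col against 12.6 in coi1-2 with Al. None of 17 phenylpropanoid, 7 triterpene, 6 heat shock and 6 evening clock genes was called, and none of 4 morning clock genes passed the filter.

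**Figure D3:**
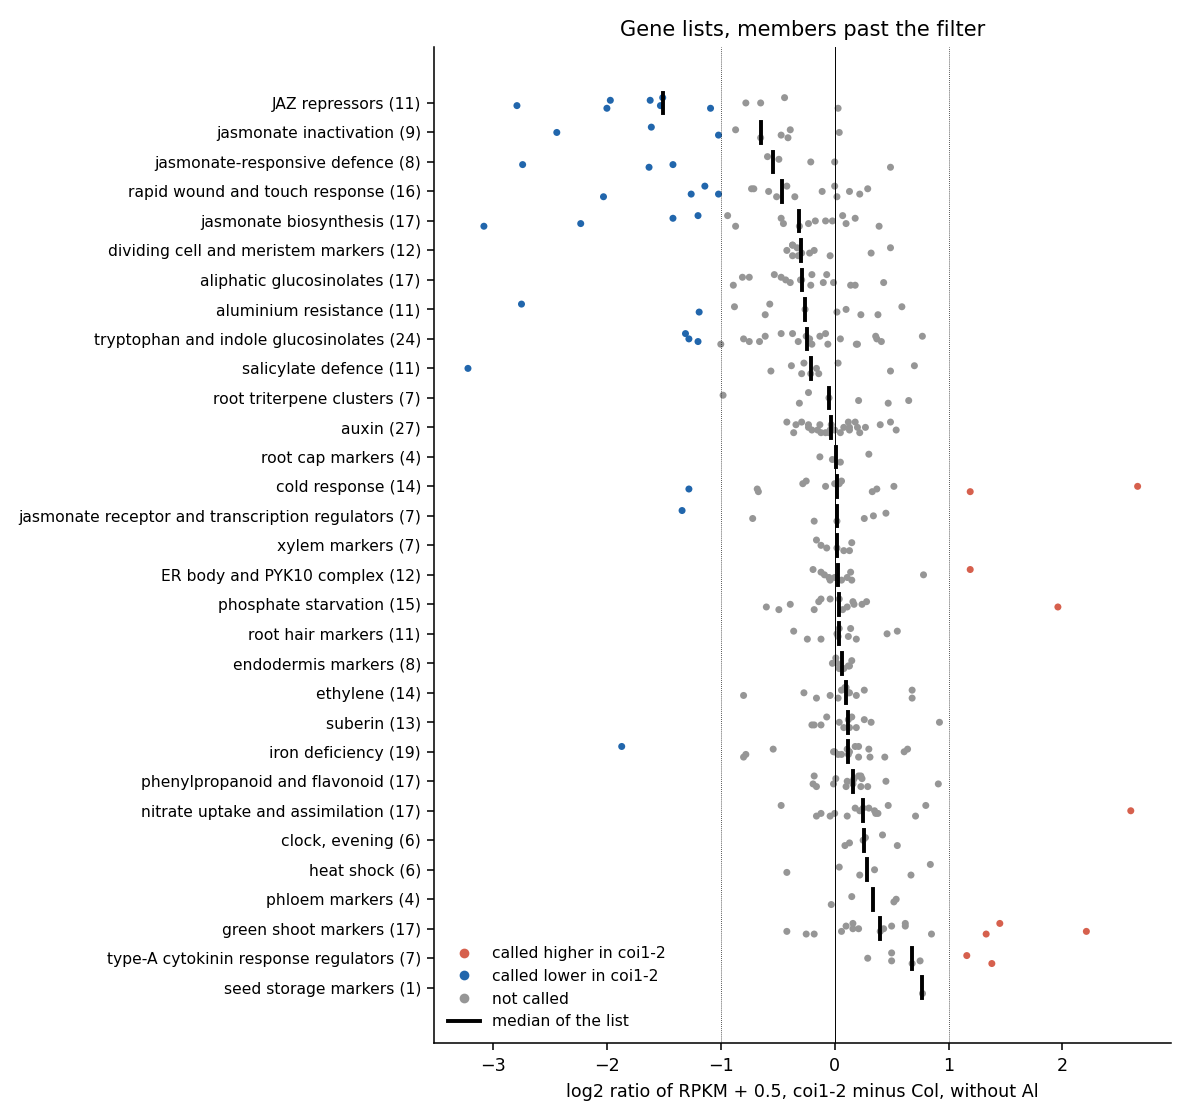
Log2 ratios without Al (x axis, coi1-2 minus Col, 1 library each) of the members past the filter of 31 gene lists, with their number in brackets; black bars are list medians and dotted lines 2-fold. The JAZ repressors have the lowest median (-1.51), and the markers of endodermis, root hair, root cap, xylem and suberin lie close to 0.

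No marker of a root cell type passed 2-fold. None of 8 endodermis (median 0.06), 11 root hair (0.04), 4 root cap (0.01), 7 xylem (0.02), 4 phloem (0.34) or 12 dividing-cell genes (-0.30) was called in either direction, and none of 13 suberin genes. The endodermis list summed to 926.0 RPKM in Col against 968.9 in coi1-2, and the root hair list to 1520.2 and 1600.9. In such bulk samples fewer cells of a type and less RNA per cell cannot be told apart. The dividing-cell genes summed to 219.5 and 182.9 RPKM, with 10 of 12 below 0, and their median lay below the lower quartile of all genes. Of 9 seed storage genes SESA4 alone passed the filter, with 10 and 18 reads.

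Some long genes for coiled-coil proteins were called higher in coi1-2, and their transcripts shared a property. Of 33 genes with such a file description, chosen after the values were seen, 13 were called higher, where 1.43% of all genes were, 0 were called lower and 20 were not called. The 13 include NET1A (4.54 and 12.0 RPKM, 1.31), NET1B, NET1C and NET1D, which link actin to membranes, LINC1 (18.7 and 39.9 RPKM, 1.07) and LINC3 of the nuclear lamina, and RAD50 (1.41 and 5.7 RPKM, 1.70) and SMC2, of DNA repair and chromosome structure. AT2G32240 (15.4 and 52.6 RPKM, 1.74) and AT5G40450 (7.44 and 28.7 RPKM, 1.88), outside the 33, were also called higher. Transcripts of the group are rich in purines (A and G): the median share was 56.4% over the 33 genes and 50.6% over genes not called.

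Over all genes the ratio without Al moved with that share. Where purines made under 50% of the transcript, 76 of 7218 genes (1.05%) were called higher, and where they made 60% or more, 16 of 113 (14.2%), with medians of -0.02 and 0.41. The pair with Al moved with the share too, but not steadily. Relative to all genes its medians were -0.22 under 50% purine, 0.16 from 50 to 55% and 0.24 from 55 to 58%. They were 0.12 from 58 to 60% and -0.02 at 60% or more. After subtraction of the trend with purine share, an alternative chosen after seeing the data, 191 genes (1.11% of 17156) were called higher and 230 (1.34%) lower, and NET1A was at 1.01, AT2G32240 at 1.43 and AT5G40450 at 1.56. LINC1 (0.75), LINC3 (0.89) and SMC2 (0.83) were then no longer called, and of the 113 genes with 60% or more purine 5 were called higher in place of 16. The part of library preparation in this trend was not tested. Of the jasmonate genes 17 were then called lower, with JAZ2 at -1.54, AOS at -1.41 and ERF109 at -2.99.

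**Figure D4:**
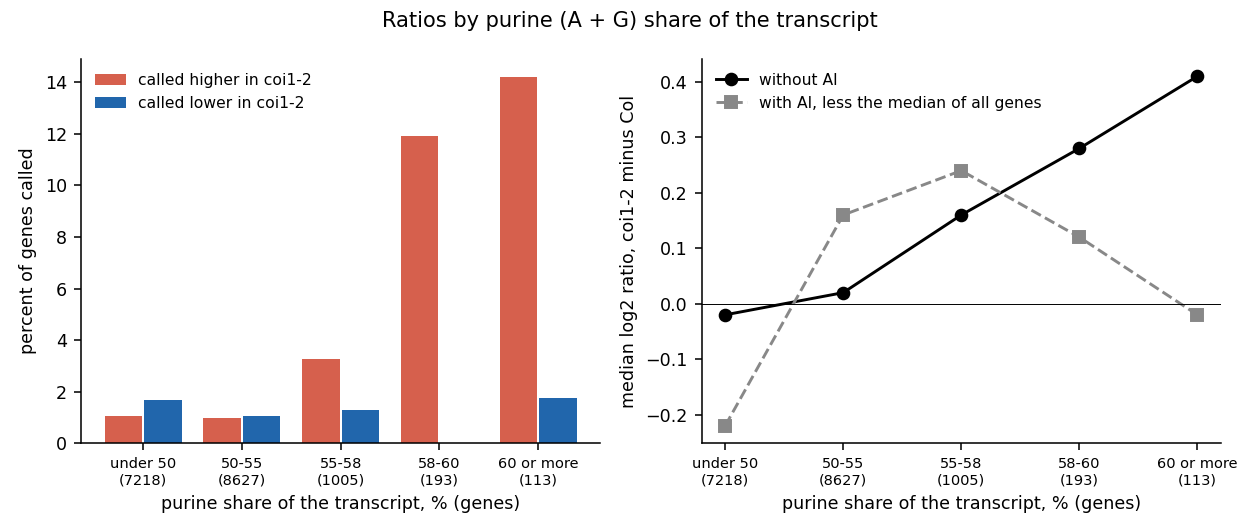
Left, percent of genes called higher and lower without Al by purine share of the transcript (bars start at 0, number of genes in brackets, no bar where 0 were called); right, the median log2 ratio in each class without Al and, less the median of all genes, with Al. Calls on the higher side go from 1.05% under 50% purine to 14.2% at 60% or more.

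The 486 genes called without Al were set beside the pair with Al. Of 251 higher genes 32 were also higher with Al, which is 12.7% of them and 2.32% of the genes higher with Al, against 7.87% of all genes. With the length trend subtracted 27 were also higher, which is 10.8% of them and 7.74% of the genes higher with Al, against 1.99% of all. Of 235 lower genes 41 were also lower with Al, where 1.87% of all genes were, and these 41 made 12.5% of the genes lower with Al. With the length trend subtracted 45 were also lower, which is 19.1% of them and 13.1% of the genes lower with Al, against 1.96% of all. The lower genes had the same sign with Al in 64.3% of cases, where 34.3% of all genes had a ratio below 0; the higher genes had it in 67.7%, where 65.7% of all genes had a ratio above 0. After the length trend was subtracted these shares were 69.8% for lower genes and 53% for higher genes, where 50% of all genes lay on either side. Across the 486 genes, which are not independent, Pearson's r between the pairs was 0.44 and Spearman's rho 0.40. Across all 17514 genes they were 0.16 and 0.15. The 486 were picked for a ratio of at least 2-fold without Al. That choice by itself tends to raise their correlation, so it cannot be set against that of all genes.

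**Figure D5:**
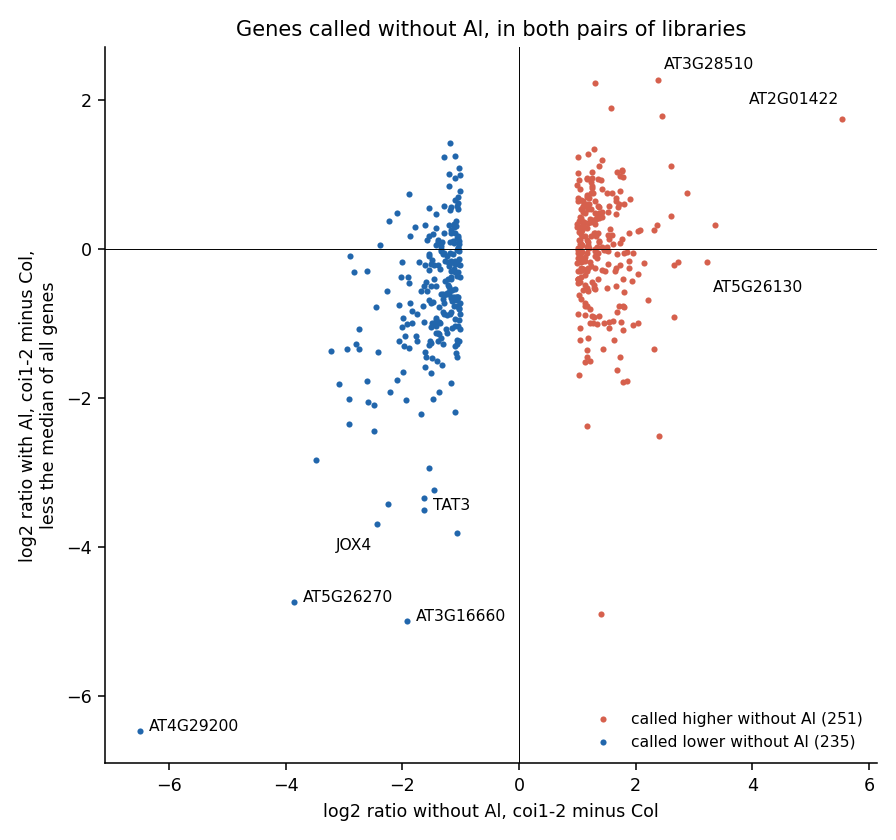
Log2 ratios of the 486 genes called without Al (x axis) beside their ratios in the libraries with Al, less the median of all genes (y axis), coi1-2 minus Col in both, 1 library a group. AT4G29200 and AT5G26270 lie low in both pairs, AT2G01422 high in both, and AT5G26130 is high only on the x axis (3.22 against -0.18).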

How the data were processed

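Poly(A)-enriched root RNA was fragmented, copied with random primers and sequenced on an Illumina instrument, per the labels' protocols; no strand-keeping step is described, so antisense partners share their reads. Per transcript the deposited files give counts of uniquely assigned reads, per the file headers. The deposited RPKM values are those counts scaled by transcript length and library total, and coverage was deposited as the percent of each transcript under reads. The aligner is not given in the sources used here, nor is the genome build. Printed gene coordinates are the files' own; 23181 of 23189 matched loci overlap their TAIR10.1 gene. Promoter and transcript sequences are from RefSeq's TAIR10.1.

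Reads and RPKM were summed over isoforms (26912 transcripts, 23381 loci, 3089 with several isoforms, whose unique reads understate their level), and a missing transcript was taken as 0. Log2 ratios used RPKM + 0.5, which understates changes of weakly read genes. Genotype over both treatments was tested on summed counts with edgeR 4.0.16 (TMM, filterByExpr, Benjamini-Hochberg, adjusted p of 0.05; common dispersion 0.0385); SE is the log2 change over the square root of F. Alternatives used DESeq2 1.42.0 and limma 3.58.1. Trends were running medians over 501 genes; purine shares were had for 17156 genes, without the plastid ones. Scripts were tested on simulated data.

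Named genes are every jasmonate list member and, by rule, the 15 highest and 15 lowest called ratios with at least 5 RPKM, the 15 largest called RPKM differences each way, up to 4 members per list and the 10 largest edgeR changes each way among genes also called without Al, of which some are left out for length; genes marked so, neighbours, family members and plastid genes fall outside the rule. The members, the 32 gene lists and the tests were chosen with earlier results of these data known.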

Additional observations from a re-analysis of the deposited data

Results flagged for a closer look

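8 named genes were called in opposite directions in the pair without Al and the pair with Al, each from 1 library a side and on the log2 ratio scale as deposited; the difference between the pairs was not tested. The regulator ARR6 was at 1.16 without Al and -1.19 with Al. The proline-rich protein gene PRP1 was at 1.14 and -1.26, and AT1G14960, of the polyketide cyclase family, at 1.16 and -2.12. On the other side, the galactinol synthase gene GOLS2 was at -1.28 and 1.5, WRKY46 at -1.02 and 1.35, the oxidase gene RBOHD at -1.20 and 1.11, and the receptor-like kinase genes CRK10 at -1.09 and 1.51 and CRK11 at -1.09 and 1.21. Over all 486 genes called without Al, 20 had an opposite call with Al, 11 of those higher without Al and 9 of those lower. With the length trend of the pair with Al subtracted, RBOHD (0.33), CRK10 (0.93) and CRK11 (0.56) were not called with Al, and the opposite calls over all genes numbered 10 and 3.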

How the results depend on the processing

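No paired analysis was possible because each group held 1 library and the labels give no replicate numbers. Leaving out a library leaves edgeR no residual degree of freedom and was not run. In the pair without Al, 162 genes were called higher with a filter of 5 RPKM, and 165 higher and 155 lower with the stricter counting interval; its other counts, jasmonate calls included, stayed within 1.5 times. In the pair with Al, genes called higher numbered 776 with a pseudocount of 1, and 349 with the length trend or with the purine trend subtracted. Higher and lower calls there numbered 526 and 822 with TMM factors, and 471 and 886 with median-of-ratios factors. Lower calls there numbered 547 with the purine trend subtracted and 209 with the stricter counting interval. Jasmonate genes lower with Al numbered 19 with TMM or median-of-ratios factors, 14 with the length trend and 16 with the purine trend subtracted. Genes higher and lower over both treatments numbered 11 and 46 with DESeq2's size factors in edgeR, 3 and 15 with DESeq2's Wald test, 57 and 119 with a length trend as an offset, and 11 and 45 at an adjusted p of 0.01. Of 2528 recomputed gene ratios without Al 59 moved by more than counting error, and of 309 list medians 4 moved and 0 were reversed. The cause was not tested. Depth limits genes such as JAZ8, with 13 and 0 reads.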
